A study of Mus musculus with 8 samples.

Results

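Newly formed oligodendrocytes (NFOL) are a stage of the oligodendrocyte lineage, named by the authors in a single-cell RNA-seq dataset of mouse cortex. The dataset also names committed oligodendrocyte precursors (COP) and myelin-forming oligodendrocytes (MFOL), the stages that by general knowledge precede and follow NFOL. The annotation gave the name NFOL to 600 of 60989 cells, all at postnatal day 21 (P21), where they were 600 of 9965 cells. Of these, 322 came from library 6, 132 from library 7 and 146 from library 8. The members were all cells with that name, which is the authors' own. The 3 P21 libraries came from wild-type C57BL/6 mice, with motor and somatosensory cortex of several animals pooled in each, and were labelled with 3 different dates. Which date belongs to which library number was not assigned. Live cells were sorted as DAPI-negative and Vybrant DyeCycle Ruby-positive events before droplet capture. The other 5 libraries, at P1 and P7, came from mice of the same strain and genotype and held 0 NFOL cells. No transgene or treatment was named for any group, and a higher papain concentration was used to dissociate P21 tissue.

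Oligodendrocytes are the glia that wrap axons of the central nervous system in myelin. They arise from dividing precursors (OPC), which commit to differentiation as COP, leave the cell cycle and become NFOL. NFOL begin to make myelin components and send out the first membrane sheets, MFOL wrap axons, and mature oligodendrocytes (MOL) maintain the sheaths. Mbp encodes myelin basic protein, which compacts the myelin membrane, and is a common marker of oligodendrocytes from the NFOL stage onward. For each cell, the table used here held the number of UMIs (unique molecular identifiers, each tagging 1 captured transcript), the number of genes seen and the mitochondrial share of the UMIs. Values per gene were not analysed here. Mbp was therefore not examined, and the name NFOL could not be checked against it. The names came from clusters built on the expression of the same cells, with UMI count and mitochondrial share regressed out, so UMIs and mitochondrial share are not wholly independent of the names.

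The P21 libraries held 2240 to 4864 cells and 7751963 to 17811960 UMIs. Libraries had been thinned by the authors to a like coverage per cell, so UMIs per cell are not absolute RNA content. Of the 600 NFOL cells, 38 (6.33%) carried a barcode also present in another library, against 7.03% of all cells. A single barcode belonged to 2 NFOL cells, 1 in library 6 and 1 in library 7.

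NFOL were a larger part of library 6 than of libraries 7 and 8 on every base. They made up 11.3% of all cells in library 6 (95% Wilson interval 10.1% to 12.5%), 5.89% in library 7 (4.99% to 6.95%) and 3.0% in library 8 (2.56% to 3.52%). The mean was 6.72% ± 4.19 (SD, n = 3), with a 3.75-fold difference between the highest and the lowest library. The intervals, which cover counting error only, did not overlap. Without library 6 the mean was 4.45%, and with cells of at least 1500 genes only it was 11.7%. Library 6 held 28.7% of the P21 cells and 53.7% of the NFOL cells, while library 8 held 48.8% of the P21 cells and 24.3% of the NFOL cells.

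Taking only oligodendrocyte-lineage cells as the base narrowed this difference without removing it. NFOL were 16.4% of 1969 lineage cells in library 6, 11.6% of 1141 in library 7 and 6.99% of 2089 in library 8. Without OPC, which numbered 905 in library 8 against 317 and 261 in libraries 6 and 7, the shares were 19.5%, 15.0% and 12.3%. The mean of these was 15.6% ± 3.62 (SD, n = 3), and the highest library was 1.58-fold above the lowest. On this last base the interval of library 7 (12.8% to 17.5%) overlapped that of library 8 (10.6% to 14.3%). Library 7 stayed below library 6 (17.7% to 21.5%). All of these are shares of the cells kept after the sort and the filters, so differences in capture and in the tissue cannot be told apart.

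**Figure D1:**
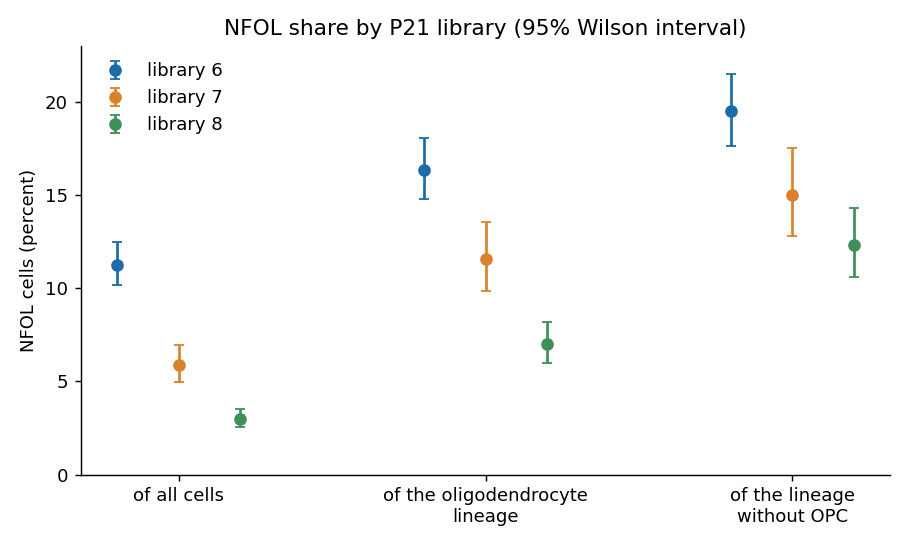
NFOL cells as a percent of all cells, of the oligodendrocyte lineage and of the lineage without OPC (vertical axis) in the 3 P21 libraries; points are libraries and bars 95% Wilson intervals, which cover counting error only. Library 6 is highest on each base, at 11.3%, 16.4% and 19.5%, and library 8 lowest, at 3.0%, 6.99% and 12.3%.

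The neighbouring stages framed NFOL differently in each library. There were 3.75 COP cells for each NFOL cell in library 6, 4.83 in library 7 and 5.99 in library 8. For each MFOL cell there were 4.24, 3.30 and 1.78 NFOL cells in the same libraries. For each MOL cell there were 6.85, 1.86 and 1.78. NFOL therefore outnumbered MFOL and MOL, each taken singly, in all 3 libraries and were outnumbered by COP in all 3. Library 8 held 146 NFOL, 82 MFOL and 82 MOL cells, so there the later stages together outnumbered NFOL. No test among libraries was possible, because each is a single sample. At the earlier ages, 0 of 1622 lineage cells at P1 and 0 of 214 at P7 were named NFOL. The names were given to whole clusters, built separately at each age. These counts therefore do not limit how many NFOL-like cells were present at P1 or P7.

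NFOL cells carried more UMIs than COP cells of the same library, and their level varied between libraries more than that of any other lineage stage. The median NFOL cell held 5267.5 UMIs in library 6, 6731 in library 7 and 8864 in library 8. The highest of these was 1.68-fold above the lowest, against 1.18-fold for COP, 1.18-fold for MFOL, 1.14-fold for MOL and 1.07-fold for OPC. Library 8, with the smallest NFOL share, thus had the richest NFOL cells, and library 6, with the largest share, had the poorest. The spread between libraries was summarised for lineage stages only. The 10th and 90th percentiles of NFOL cells were 3087 and 8506 UMIs in library 6, 3433 and 9957 in library 7, and 4590 and 12172 in library 8.

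Median UMIs of COP were 3542, 3667 and 4183.5 in libraries 6, 7 and 8. NFOL stood 1.49-fold, 1.84-fold and 2.12-fold above them. The mean log2 difference was 0.84 ± 0.26 (SD, n = 3), with NFOL higher in 3 of 3 libraries (two-sided exact permutation test over sign flips, p = 0.25, adjusted p = 0.4 over 8 comparisons). With 3 libraries this test cannot give a p below 0.25, so no pair of stages could pass 0.05. Between 83.9% and 91.1% of NFOL cells lay above the COP median of their own library. The distributions still overlapped, as 18.8% of NFOL cells and 57.8% of COP cells held under 4000 UMIs.

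Against MFOL the direction differed between libraries. Median UMIs of MFOL were 7080, 8369.5 and 7955. NFOL stood at 0.744 and 0.804 of the MFOL level in libraries 6 and 7, and at 1.11 times it in library 8. The mean log2 difference was -0.19 ± 0.31 (SD, n = 3), with library values from -0.43 to 0.16 (exact permutation test, adjusted p = 0.667). In library 8, 61.6% of NFOL cells held over 8000 UMIs, compared with 46.3% of MFOL cells. In library 6 these shares were 13.0% and 31.6%. Cells over 14000 UMIs, just under the study's maximum of 15000, numbered 6 among the 600 NFOL cells, 4 of them in library 8, 0 among 2718 COP and 198 MFOL cells, and 1 among 200 MOL cells. The sources used here do not say how doublets were handled, no caller was run, and their part in this upper range was not tested.

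**Figure D2:**
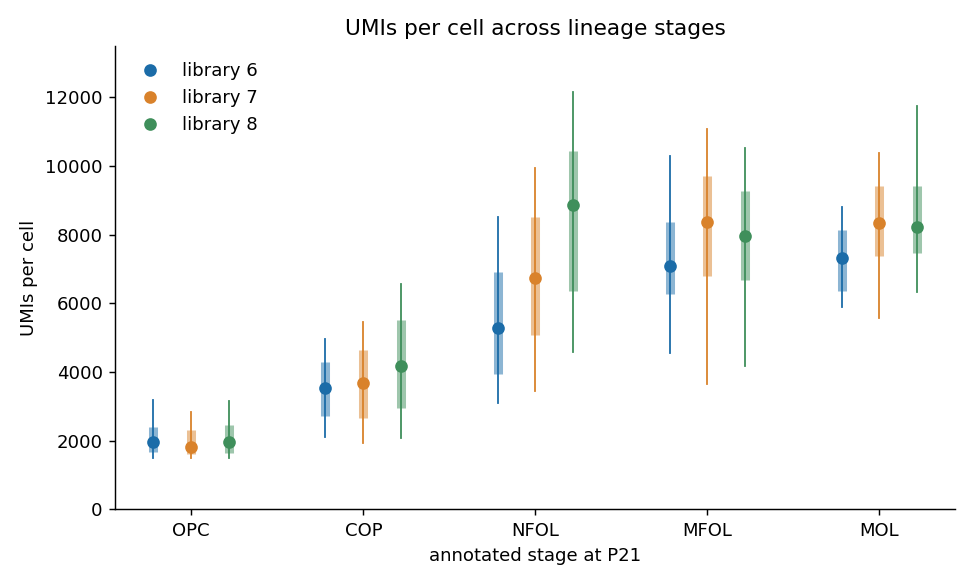
UMIs per cell (vertical axis) of the 5 lineage stages in the 3 P21 libraries; points are medians over cells, thick bars the 25th to 75th percentiles and thin lines the 10th to 90th. NFOL medians spread from 5267.5 in library 6 to 8864 in library 8, while COP medians lie between 3542 and 4183.5 and MFOL medians between 7080 and 8369.5.

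Genes per cell followed UMIs. The median NFOL cell had 2216.5 genes in library 6, 2519 in library 7 and 2982.5 in library 8, and COP cells had 1820, 1851 and 2095. NFOL were higher in 3 of 3 libraries, by 0.41 ± 0.12 on the log2 scale (SD, n = 3), or 1.22-fold, 1.36-fold and 1.42-fold (exact permutation test, p = 0.25, adjusted p = 0.4). MFOL had 2451, 2585 and 2577 genes. NFOL differed from them by -9.57% and -2.55% in libraries 6 and 7 and by 15.7% in library 8. The mean log2 difference from MFOL was 0.01 ± 0.18 (SD, n = 3; exact permutation test, adjusted p = 1), and without library 8 it was -0.09.

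Once cells with like UMI counts were compared, NFOL held fewer genes than COP and more than MFOL in every library. Cells were sorted into bins of 0.25 log2 UMIs, and differences in bins with at least 3 cells of each type were weighted by the NFOL cells. Against COP the matched difference was -6.33%, -2.99% and -8.36% in libraries 6, 7 and 8, a mean of -0.09 ± 0.04 on the log2 scale (SD, n = 3). Against MFOL it was 7.08%, 8.03% and 6.52%, a mean of 0.10 ± 0.01 (SD, n = 3). Both pairs had the same direction in 3 of 3 libraries, with p = 0.25 and adjusted p = 0.4 in the exact permutation test.

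Both ranges that held at least 3 cells of each type in every library are given here, the first from 5793 to 6889 UMIs and the second from 6889 to 8192. In the first range of library 6 the geometric mean was 2680 genes in 26 COP cells, 2453 in 44 NFOL cells and 2286 in 19 MFOL cells. In library 7 it was 2545 in 31 COP cells, 2455 in 25 NFOL cells and 2230 in 4 MFOL cells. In library 8 it was 2622 in 98 COP cells, 2553 in 12 NFOL cells and 2370 in 13 MFOL cells. NFOL lay between COP and MFOL in this range in all 3 libraries. In the second range of library 6 the mean was 2974 genes in 10 COP cells, 2653 in 41 NFOL cells and 2511 in 20 MFOL cells. In library 7 it was 2570 in 3 COP cells, 2661 in 22 NFOL cells and 2419 in 7 MFOL cells. In library 8 it was 2907 in 48 COP cells, 2839 in 17 NFOL cells and 2498 in 17 MFOL cells. NFOL were again above MFOL in all 3 libraries, and below COP in libraries 6 and 8 but above the 3 COP cells of library 7. Over all bins, NFOL were below COP in 24 of 25 and above MFOL in 18 of 19. The exception with MFOL lay in library 8 from 9742 to 11585 UMIs, the bin with the most NFOL cells of that library. There the geometric mean was 3154 genes in 34 NFOL cells and 3165 in 11 MFOL cells. Bins of 1 library share their cells' source and are not replicates. The bins with COP held 87.0%, 69.7% and 81.5% of the NFOL cells of libraries 6, 7 and 8, and those with MFOL held 71.7%, 64.4% and 91.8%.

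The 3 stages were also compared together, by an exact permutation test of the stage names within each library, whose smallest p is 0.0278 over 216 arrangements. Genes at matched UMIs reached that smallest value (p = 0.0278), ahead of UMIs (p = 0.0556), mitochondrial share (p = 0.0833) and genes per cell (p = 0.111) in the same exact test. After adjustment over these 4 measures the adjusted p of this exact test was 0.111 for each, so none passed 0.05. The test asks whether the stages differ, not whether NFOL do.

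**Figure D3:**
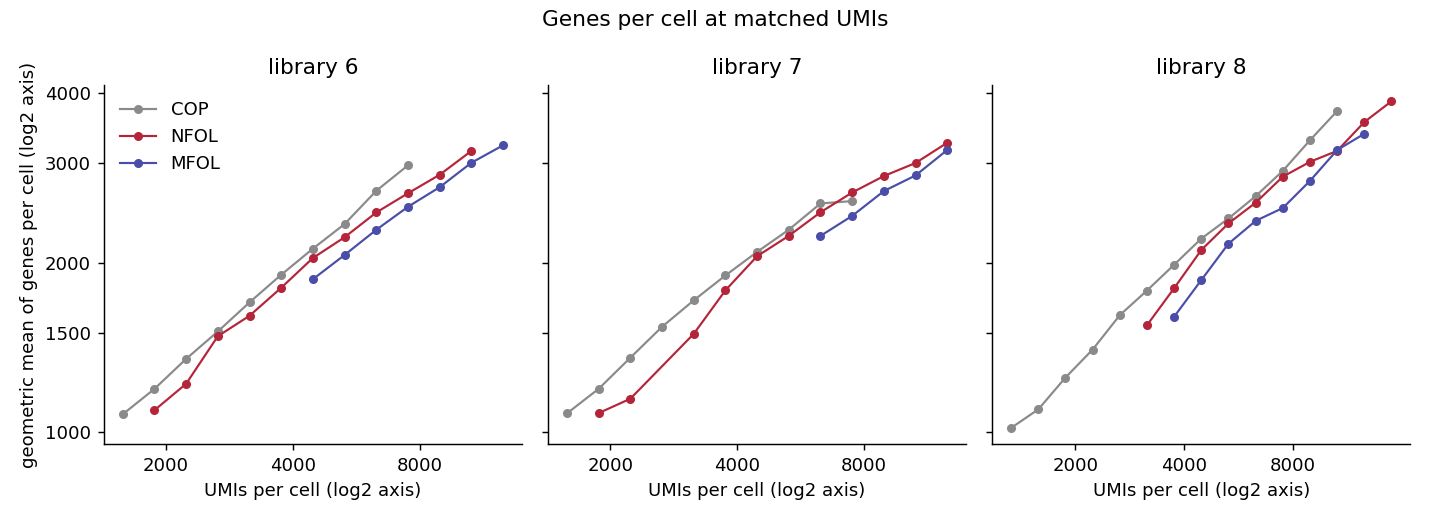
Geometric mean of genes per cell (vertical, log2 axis) against UMIs per cell (horizontal, log2 axis) in bins of 0.25 log2 UMIs with at least 3 cells, for COP, NFOL and MFOL in each P21 library. The NFOL line runs below the COP line in 24 of 25 shared bins and above the MFOL line in 18 of 19.

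Median UMIs per gene, the mean number of transcripts seen for each gene detected, placed NFOL between COP and MFOL in every library. Without matching, this ratio rises with UMIs, since all slopes given below are under 1. It is therefore not separate support for the matched result. NFOL stood at 2.37, 2.64 and 2.96 in libraries 6, 7 and 8, COP at 1.94, 1.96 and 1.98, and MFOL at 2.94, 3.25 and 3.03. Within NFOL, log2 genes rose with log2 UMIs across cells, with Pearson's r of 0.977, 0.962 and 0.962 in libraries 6, 7 and 8 (322, 132 and 146 cells). The slope was 0.58, 0.60 and 0.56 log2 genes per log2 UMI. COP cells had slopes of 0.66, 0.62 and 0.62, and MFOL cells 0.61, 0.63 and 0.66. All of these are across cells of a library, where genes and UMIs come from the same reads, and are given as descriptions.

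The mitochondrial share of UMIs in NFOL was near that of COP and below that of the later stages. Mitochondrially encoded transcripts are those of the respiratory chain subunits and RNAs made in the mitochondrion itself, and a high share is often read as a sign of cell damage. The NFOL medians were 3.70%, 3.50% and 3.16% in libraries 6, 7 and 8. COP stood at 3.63%, 3.52% and 3.53%, and the mean difference of -0.10 ± 0.23 percentage points (SD, n = 3) was smaller than its spread (exact permutation test, adjusted p = 0.857). Without library 8 it was 0.03. With means over all cells in place of medians, the difference from COP was -0.16 ± 0.19 (SD, n = 3). With means within the UMI bins used for genes, weighted by the NFOL cells, it was 0.08 ± 0.19 (SD, n = 3).

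MFOL had a higher mitochondrial share than NFOL in 3 of 3 libraries, at 4.24%, 5.24% and 4.48%. The difference of NFOL from MFOL was -0.54, -1.74 and -1.31 percentage points in libraries 6, 7 and 8, with a mean of -1.20 ± 0.61 (SD, n = 3; exact permutation test, p = 0.25, adjusted p = 0.4). With means in place of medians, it was -1.23 ± 0.49 over all cells and -1.31 ± 0.04 at matched UMIs (SD, n = 3 for each). MOL stood at 4.83%, 4.87% and 4.92%, and OPC at 4.40%, 4.23% and 4.24%, all above NFOL of the same library. In transcripts, the median NFOL cell held 182, 222 and 271.5 mitochondrial UMIs, against 125, 130 and 139 in COP and 303, 376.5 and 361 in MFOL. NFOL thus lay between their neighbours in mitochondrial UMIs, in the same order in every library.

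Across NFOL cells, Pearson's r of mitochondrial share with log2 UMIs was -0.23, -0.13 and -0.15 in libraries 6, 7 and 8, and Spearman's rho was -0.19, -0.03 and 0.04. By rank, the sign thus turned in library 8. Pearson's r was -0.43, -0.56 and -0.70 in MFOL (76, 40 and 82 cells) and -0.35, -0.46 and -0.32 in COP, and rho was negative in every library for both. These too are descriptions across cells. Of all NFOL cells, 81.5% had a share under 5%, compared with 81.6% of COP and 61.1% of MFOL cells. Only 6 NFOL cells exceeded 9%, near the study's limit of 10%.

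**Figure D4:**
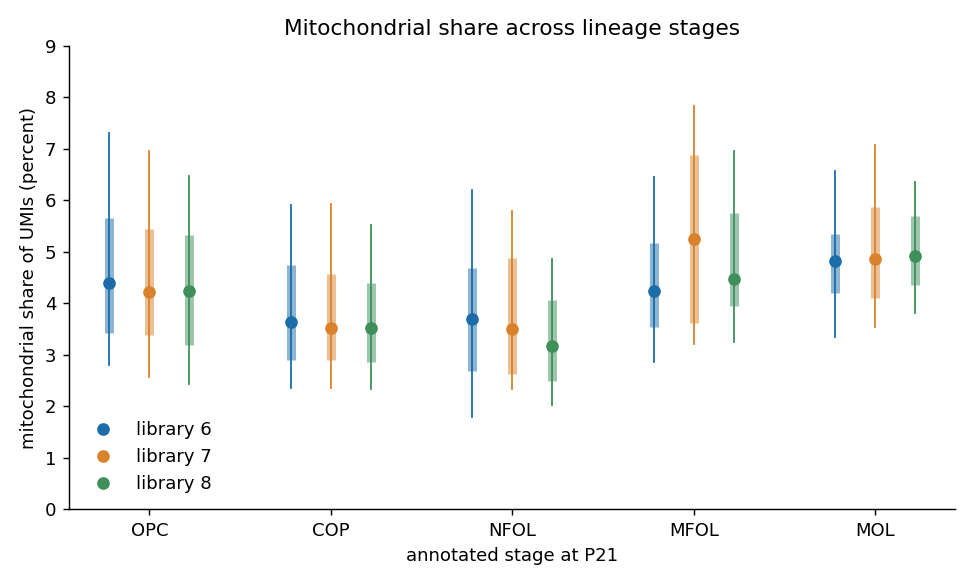
Mitochondrial share of UMIs in percent (vertical axis) of the 5 lineage stages in the 3 P21 libraries; points are medians over cells, thick bars the 25th to 75th percentiles and thin lines the 10th to 90th. NFOL medians (3.16% to 3.70%) lie beside those of COP (3.52% to 3.63%) and below those of MFOL (4.24% to 5.24%).

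Among P21 types with at least 20 cells in a library, Undetermined cells left out, NFOL ranked high in UMIs and low in mitochondrial share. In UMIs they were 5th of 12 types in library 6, 3rd of 9 in library 7 and 2nd of 12 in library 8, where layer IV neurons alone stood higher (9080.5 UMIs). In genes they were 6th, 3rd and 4th. Callosal projection neurons (CPN), next below NFOL in genes, had medians of 2170, 2301 and 2921 genes in libraries 6, 7 and 8. Like those of NFOL, these medians rose from library 6 to library 8. In mitochondrial share NFOL were 10th of 12 in library 6, 8th of 9 in library 7 and 10th of 12 in library 8. NFOL contributed 17.0%, 11.6% and 7.05% of the UMIs of libraries 6, 7 and 8, more than their 11.3%, 5.89% and 3.0% of the cells. Close to the study's minimum of 1000 genes, 9 of 600 NFOL cells (1.50%) and 86 of 2718 COP cells (3.16%) had under 1100 genes.

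All NFOL cells belonged to 1 cluster, named P21_40_NFOL, so the type had no subclusters to compare. A COP cluster with the neighbouring number, P21_41_COP, held 444 of the 2718 COP cells, and P21_0_COP the other 2274. What the numbering stands for is not stated in the sources used here. P21_41_COP made up 23.9% of COP in library 6, 12.9% in library 7 and 8.47% in library 8. Like NFOL it was thus most frequent in library 6. Of the 1044 cells of clusters 40 and 41 together, NFOL were 52.8%, 61.7% and 66.4% in libraries 6, 7 and 8.

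The large library differences in NFOL UMIs were matched in P21_41_COP and not in the other lineage clusters. Its medians were 3149.5, 3847 and 5280.5 UMIs in libraries 6, 7 and 8, a 1.68-fold range, as in NFOL. P21_0_COP stood at 3698, 3653 and 4048.5, a 1.11-fold range, and the OPC, MFOL and MOL clusters ranged from 1.05-fold to 1.19-fold. NFOL lay above P21_41_COP by 0.77 ± 0.04 on the log2 scale (SD, n = 3), 1.67-fold to 1.75-fold in single libraries, and above P21_0_COP by 0.84 ± 0.31 (SD, n = 3), 1.42-fold to 2.19-fold. Genes at matched UMIs were below both, by a mean log2 difference of -0.08 ± 0.04 for P21_41_COP and -0.10 ± 0.02 for P21_0_COP (SD, n = 3 for each). In mitochondrial share NFOL stood above P21_41_COP in 3 of 3 libraries, by 0.27 ± 0.19 percentage points (SD, n = 3), and differed from P21_0_COP by -0.13 ± 0.24 (SD, n = 3). By exact permutation, adjusted p was 0.333 for each measure against P21_41_COP and at least 0.4 against P21_0_COP. Both COP clusters were set apart only once their values were known.

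**Figure D5:**
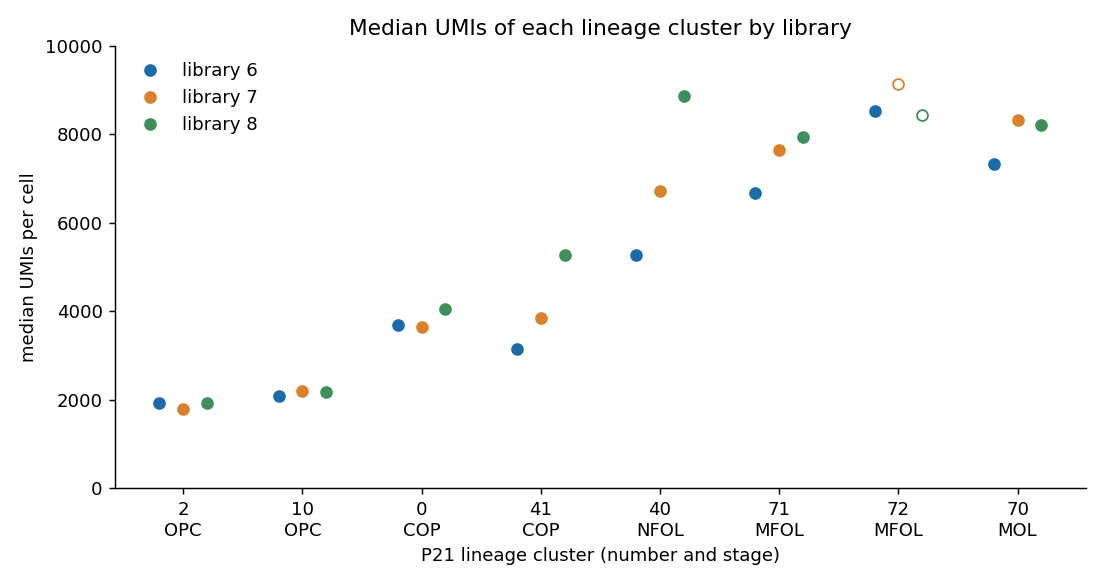
Median UMIs per cell (vertical axis) of each P21 lineage cluster (horizontal axis, cluster number and stage) in the 3 libraries; filled points hold at least 20 cells and open points fewer. Clusters 40 (NFOL) and 41 (COP) spread 1.68-fold between libraries, and the other clusters 1.05-fold to 1.19-fold.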

How the data were processed

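Per the submitters' processing notes and methods, the authors used Cell Ranger 3.0.1 with mouse genome build mm10 and aggregated the libraries, sampling reads down so that coverage per cell was alike. Cells were retained from 1000 genes up to 6000 genes or 15000 UMIs, where mitochondrial reads were below 10%. Outlier clusters were dropped, and the rest were named by curated markers. The deposited cell table holds UMI counts, genes per cell and the mitochondrial share as a fraction, printed here in percent. The number after a barcode gave the library. No library was assigned to a single labelled sample.

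Values per library, for types with at least 20 cells, were medians over cells, compared within libraries. Pair differences in UMI bins used means over cells instead. Two-sided exact permutation tests flipped the signs of the library values (8 pairs) or permuted stage names within libraries (4 measures), with Benjamini-Hochberg adjustment and a threshold of 0.05. In the joint test, genes were adjusted to a common UMI count with 1 slope per library. P-values set the library values against their sign-flipped or relabelled arrangements. The libraries, which are pools of animals, were the unit. The comparison of genes at matched UMIs and the joint permutation test were tested on simulated data. The sign-flip test was checked only on a fixed set of values with a known p. Alternatives were other filters on cells, means, other ways of matching UMIs, pooled cells, single COP clusters and leaving out each library. The members, measures and tests were chosen with earlier results of these data known. No gene had a value, so none was selected by rule, and Mbp was named as the marker only. Software was Python 3.11.15, matplotlib 3.10.9, scipy 1.17.1, pandas 2.3.3 and numpy 2.4.6.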

Additional observations from a re-analysis of the deposited data

How the results depend on the processing

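With cells of at least 1500 genes, the NFOL share of all cells moved from 6.72% to 11.7%; the shares of the lineage, with or without OPC, moved by less than 1 SD. The mitochondrial difference from COP changed sign with at least 1500 genes (0.0048 percentage points), at matched UMIs (0.084) and against P21_41_COP alone (0.27, an alternative added after seeing the values). The cause was not tested. Without a library in turn, it ranged from -0.19 to 0.026, and the log2 difference in genes from MFOL from -0.091 to 0.087; both turned without library 8. The other pair differences kept their direction under all alternatives run. Without a library in turn, log2 differences from COP and MFOL ranged from 0.72 to 0.98 and -0.37 to -0.08 in UMIs and from -0.11 to -0.07 and 0.09 to 0.11 in genes at matched UMIs, and the mitochondrial difference from MFOL from -1.53 to -0.92 percentage points. Adjusted p of the joint exact permutation tests ranged from 0.0556 to 0.111 under the alternatives with 3 libraries; unadjusted p was 0.0278 for genes at matched UMIs in each of these, and for mitochondrial share with means over cells or with P21_41_COP alone. With 2 libraries the smallest unadjusted p is 0.167. A mitochondrial share under 5% left fewer than 20 MFOL cells in library 7, so comparisons with MFOL then used 2 libraries. NFOL formed 1 cluster, so its largest subcluster alone could not be run. The 3 libraries limit every test, and MFOL values rest on 40 to 82 cells a library. No paired analysis was possible because no result compared the ages, which are the groups that share replicate numbers in the labels; the comparisons of stages above were already made within each library.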
